A study of Mus musculus with 2 samples.

Results

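The 10 Frizzled genes of the mouse, Fzd1 to Fzd10, were examined for binding of DPPA2 in embryonic stem cells with and without DNA damage. The members were taken by name out of 21887 protein-coding genes on chromosomes 1 to 19, X and Y, with RefSeq positions in the build mm10. All 10 were found in the gene table. The family was chosen by its peak calls at gene ends in these 2 libraries, that is, on measured values, so its counts of peaks are a description and carry no test. DPPA2 binds DNA together with its partner DPPA4 and is made in pluripotent cells and the germline. It was mapped by ChIP-seq, the sequencing of DNA that an antibody pulls down with a bound protein. The cells were R1/E, 1 line of mouse embryonic stem cells that is wild type for p53. One library came from cells given adriamycin for 8 h and 1 from untreated cells. Adriamycin (doxorubicin) is a topoisomerase poison that breaks DNA. Both groups were the same line, grown on gelatin with leukemia inhibitory factor, and were precipitated with the same DPPA2 antibody. The label that should give the treated sample's genotype holds the drug and the time instead, so its group rests on its title. Peak lists hold no expression values, and the cell type could not be checked against its marker genes.

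Frizzled proteins are the seven-pass membrane receptors of secreted Wnt ligands. A Wnt protein binds the cysteine-rich domain outside the cell and draws in a co-receptor, LRP5 or LRP6, and the receptor then recruits Dishevelled. In the canonical branch this stops the breakdown of beta-catenin, which enters the nucleus and acts with TCF and LEF factors. In embryonic stem cells Wnt signalling is known to favour self-renewal, and Frizzled receptors also act in planar cell polarity.

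A peak in the deposited lists is a stretch of enriched reads, and its summit is its highest position. The fold of a peak is the summit over the local background as the authors' caller computed it, and is used here only to rank peaks within a list. The number of DNA fragments at each summit, the pileup, was recovered from the deposited fold and −log10 p. The adriamycin list held 16229 peaks and the untreated list 7043, with a median pileup of 14 fragments in each. The genome-wide background was taken as the lowest local background recovered under any peak of a list. It was 1.03 fragments with adriamycin and 1.19 untreated. A gene-end peak is one with its summit within 1 kb of either end of the gene. Each group had 1 library, so every difference below is one between 2 libraries, with no test, no p-value and no replicate spread. Intervals are exact 95% Poisson intervals that cover counting error only.

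RefSeq promoter sequences of build GRCm38.p6, the assembly of mm10, were held for 6 of the 10 genes: Fzd1, Fzd4, Fzd5, Fzd7, Fzd9 and Fzd10. Of these, 4 are shown, because they cover the patterns of gene-end calls seen among these 6. Fzd3 and Fzd8, called in both lists, have no promoter sequence here. At Fzd10 the adriamycin peak lies over the promoter itself, at Fzd1 the adriamycin peak lies beside the promoter with the fewest CpG dinucleotides of the 6, at Fzd9 no peak was called with adriamycin and 1 was called untreated, and at Fzd4 no peak was called near the gene in either. Each line gives the 250 bases upstream of the transcription start, read 5′ to 3′ on the gene's strand, with every CpG in capitals. Fzd10 is at chr5:128600856-128601105 (plus strand), Fzd1 at chr5:4758217-4758466 (minus), Fzd9 at chr5:135251048-135251297 (minus) and Fzd4 at chr7:89404116-89404365 (plus).
Fzd10: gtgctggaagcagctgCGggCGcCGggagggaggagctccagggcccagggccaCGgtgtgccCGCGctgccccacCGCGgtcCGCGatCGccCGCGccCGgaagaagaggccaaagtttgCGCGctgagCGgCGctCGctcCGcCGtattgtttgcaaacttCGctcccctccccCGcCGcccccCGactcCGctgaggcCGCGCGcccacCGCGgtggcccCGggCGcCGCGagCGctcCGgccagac
Fzd1: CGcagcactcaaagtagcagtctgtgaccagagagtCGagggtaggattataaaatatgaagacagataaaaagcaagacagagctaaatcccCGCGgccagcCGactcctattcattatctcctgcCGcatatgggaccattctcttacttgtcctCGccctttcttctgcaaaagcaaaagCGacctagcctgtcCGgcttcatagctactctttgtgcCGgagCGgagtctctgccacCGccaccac
Fzd9: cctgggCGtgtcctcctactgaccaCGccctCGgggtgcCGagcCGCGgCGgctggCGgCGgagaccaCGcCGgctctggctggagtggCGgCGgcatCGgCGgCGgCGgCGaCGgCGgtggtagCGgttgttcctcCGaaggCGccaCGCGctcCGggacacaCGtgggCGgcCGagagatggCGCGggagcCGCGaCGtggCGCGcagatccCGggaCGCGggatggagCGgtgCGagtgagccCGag
Fzd4: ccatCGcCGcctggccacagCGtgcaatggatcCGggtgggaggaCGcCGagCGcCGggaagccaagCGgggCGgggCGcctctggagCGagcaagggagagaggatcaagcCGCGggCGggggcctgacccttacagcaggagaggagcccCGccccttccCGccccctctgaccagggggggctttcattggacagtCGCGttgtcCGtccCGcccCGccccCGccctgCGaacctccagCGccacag
The Fzd10 stretch holds 37 CpG dinucleotides, that of Fzd9 42, that of Fzd4 25 and that of Fzd1 12. The density of capitals is thus high at a gene with an adriamycin peak, at one with an untreated peak and at one with neither.

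With adriamycin 7 of the 10 Frizzled genes had a gene-end peak: Fzd1, Fzd2, Fzd3, Fzd6, Fzd7, Fzd8 and Fzd10. Untreated, 3 did: Fzd3, Fzd8 and Fzd9. Over all protein-coding genes the shares were 16.0% with adriamycin and 5.78% untreated. Among the members 5 were called with adriamycin alone, against 11.5% of all genes. Another 2 (Fzd3 and Fzd8) were called in both libraries, against 4.51%, and 1 (Fzd9) untreated alone, against 1.27%. Fzd4 and Fzd5 had no gene-end peak in either list. When the adriamycin list was cut to its strongest 7043 peaks by −log10 q, the length of the whole untreated list, 1 Frizzled gene was left (Fzd7). Untreated, 3 stayed, so that the order of the libraries turned. At that setting the shares of all genes were 5.72% with adriamycin and 5.78% untreated. Only the adriamycin list was cut, so the 2 lists had unlike limits of −log10 q. With a −log10 q of at least 5 in both, the counts were 3 with adriamycin and 1 untreated, beside 7.12% and 2.10% of all genes.

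**Figure D1:**
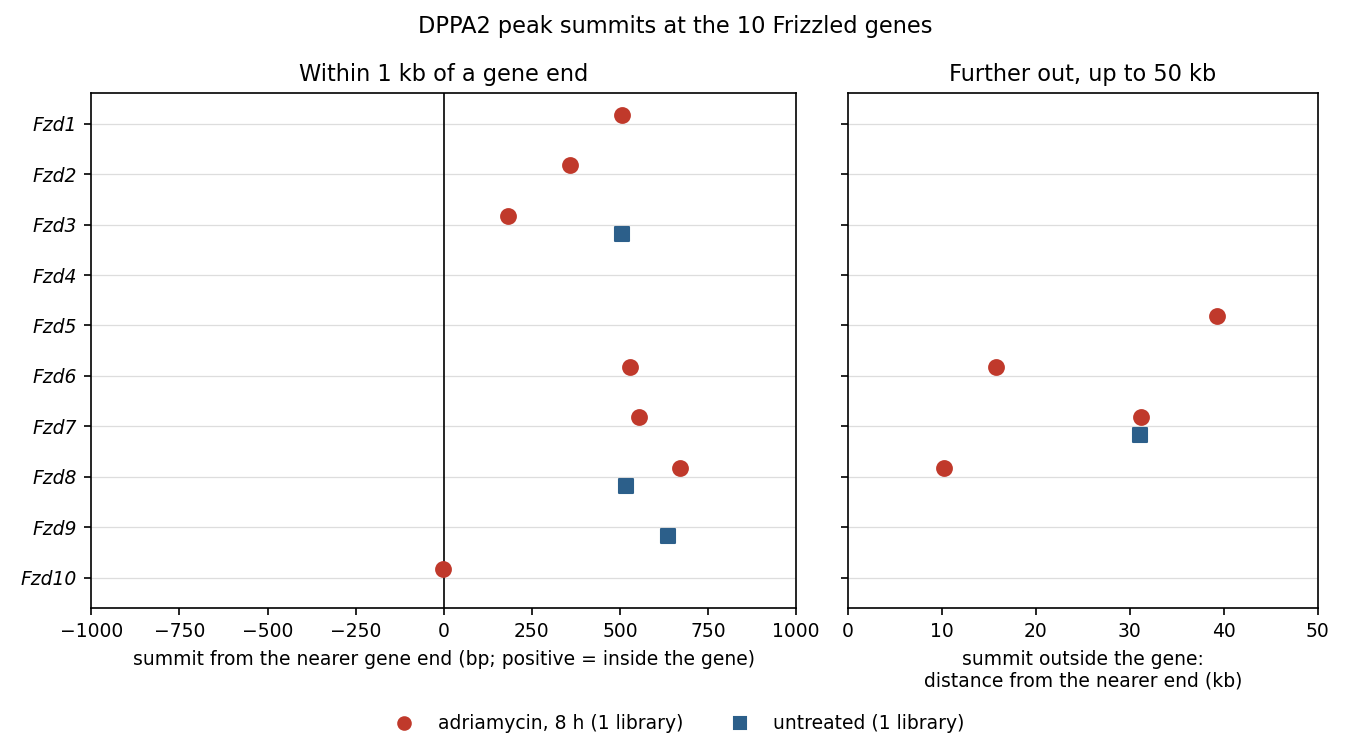
Position of every DPPA2 summit at the 10 Frizzled genes, 1 gene per row, with adriamycin circles above untreated squares. The left panel gives the distance in bp from the nearer gene end, positive inside the gene, and the right panel the distance in kb of summits outside the gene, up to 50 kb. Of the 10 gene-end summits, 9 lie inside the gene, and Fzd4 has an empty row.

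Fzd3 and Fzd8 are the members with a gene-end peak in both libraries. Fzd3, a receptor needed for axon guidance and planar cell polarity in the mouse, spans 70023 bp on chromosome 14 (65192441 to 65262463). Its adriamycin peak, at 65262118 to 65262448, had 15 fragments at the summit (interval 8.40 to 24.7) and a fold of 5.10. Its untreated peak, at 65261794 to 65262092, had 14 fragments (7.65 to 23.5) and a fold of 4.84. The peaks do not overlap: 25 bp lie between them, and their summits are 324 bp apart, at 183 bp inside the higher-coordinate end with adriamycin and 507 bp inside it untreated. The gene is therefore called in both lists without a shared peak. The summit pileup scaled to the genome-wide background was 1.24 times as high with adriamycin as untreated. Its interval of 0.560 to 2.78 includes 1 and so shows no difference in height at this depth. With summits 324 bp apart, the ratio compares different positions and not the same site.

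Fzd8 encodes the mouse receptor whose cysteine-rich domain was crystallized bound to a Wnt protein. This gene of 3346 bp on chromosome 18 (9212856 to 9216201) was the only member with overlapping gene-end peaks. The adriamycin peak, at 9213268 to 9213666, had 15 fragments (8.40 to 24.7) and a fold of 4.91, and the untreated peak, at 9213212 to 9213554, had 16 fragments (9.15 to 25.98) and a fold of 5.25. The shared stretch was 287 bp, which is 71.9% of the adriamycin peak and 83.7% of the untreated one. The summits lay 670 bp inside the lower-coordinate end with adriamycin and 518 bp inside it untreated, 152 bp apart. The scaled pileup ratio, adriamycin over untreated, was 1.09 (0.501 to 2.35), and the 2 libraries could not be told apart at this site. Among all gene-end peaks, 27.2% of the adriamycin list and 75.8% of the untreated list overlapped a peak of the other list; of the Frizzled gene-end peaks 1 of 7 and 1 of 3 did.

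The next 5 receptors were called at an end with adriamycin alone. Fzd7, a receptor known for its part in Wnt signalling of human embryonic stem cells, had the most fragments of the 7 adriamycin gene-end peaks. It lies on chromosome 1 (59482147 to 59486955), and its peak at 59482510 to 59482959 had 18 fragments (10.7 to 28.4), a fold of 5.19 and a −log10 q of 6.56. That fold stood at percentile 52.4 of the adriamycin list, and the other 6 gene-end folds were under the list's median. Gene-end peaks in general had lower folds than the whole list, with medians of 4.79 with adriamycin and 4.69 untreated. Ranked among them, 3 of the family's 7 adriamycin peaks (Fzd3, Fzd7 and Fzd8, at percentiles 62.2, 64.9 and 54.8) and 2 of its 3 untreated peaks (Fzd3 and Fzd8, at 56.4 and 74.5) were above the median. Fzd1 (chromosome 5, 4753839 to 4758216), which can signal through beta-catenin, had a peak at 4757355 to 4758027 with 13 fragments (6.92 to 22.2) and a fold of 4.38. At 673 bp it was the longest of the family's gene-end peaks. Its fold stood at percentile 23.6.

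The other three were lower or narrower. Fzd10 (chromosome 5, 128601106 to 128604093) had a peak of 200 bp, the shortest length in either list, at 128600981 to 128601180, with 12 fragments (6.20 to 20.96) and a fold of 4.42. Fzd2 (chromosome 11, 102604431 to 102608058), a receptor known for its part in palate closure in the mouse, also had a peak of 200 bp, at 102604725 to 102604924, with 11 fragments (5.49 to 19.7) and a fold of 3.85. Fzd6 (chromosome 15, 39006149 to 39038192), a planar cell polarity receptor that sets the direction of hair in the mouse, had a peak at 39006365 to 39006732 with 10 fragments (4.80 to 18.4) and a fold of 4.14. In the adriamycin list the Fzd2 fold stood at percentile 7.72 and that of Fzd6 at percentile 15.9.

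Fzd9 was the reverse case. It is the shortest member, 2110 bp on chromosome 5 (135248938 to 135251047), and encodes a receptor with known roles in bone and in the hippocampus. It had no adriamycin summit within 50 kb, the nearest being 61211 bp away, and an untreated peak of 200 bp at 135250320 to 135250519 with 12 fragments (6.20 to 20.96). Its fold of 3.78 stood at percentile 5.35 of the untreated list.

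**Figure D2:**
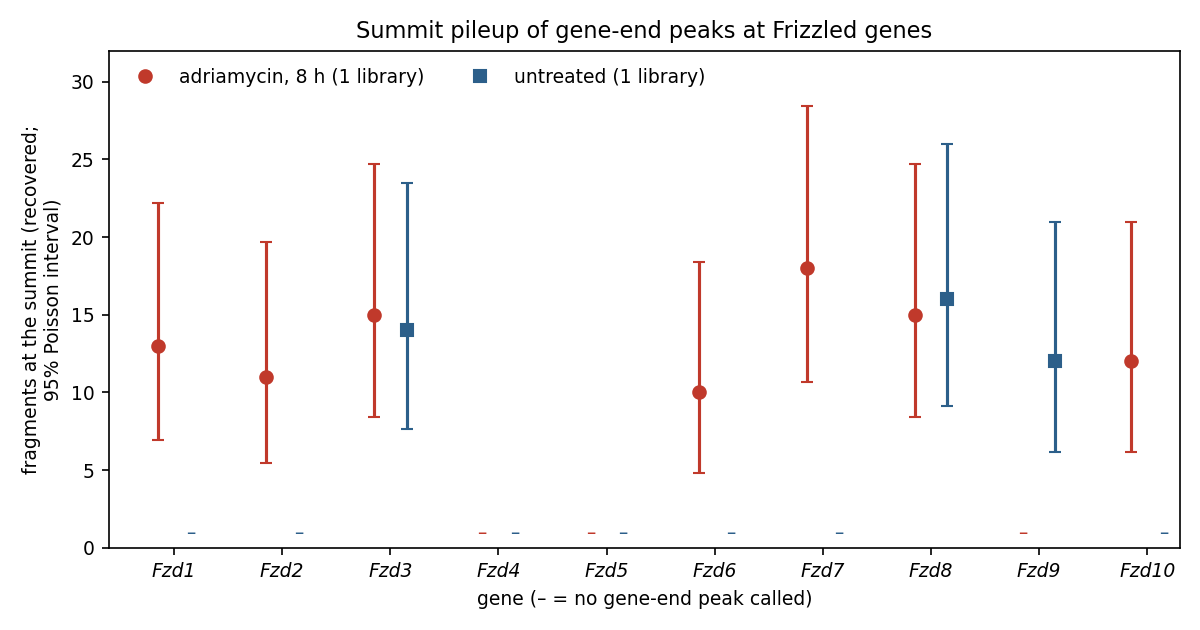
Fragments at the summit of each gene-end peak, recovered from the deposited values, with exact 95% Poisson intervals, adriamycin (circles) left of untreated (squares) for each gene. A dash marks a library with no gene-end peak called there. Pileups run between 10 and 18 fragments with adriamycin and between 12 and 16 untreated, and the intervals all overlap one another.

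The lists hold no values at sites without a call, so a gene without a call cannot be read as a gene without DPPA2. For each gene-end peak called in 1 library, the other list was searched for peaks over a like local background, within 0.1 of the same multiple of the genome-wide value. For Fzd7 the pileup of 18 corresponds to 20.9 fragments at untreated depth (12.4 to 33.01), and the lowest of 221 untreated peaks over such a background had 13. For Fzd6 it corresponds to 11.6 (5.56 to 21.3), and the lowest of 897 had 9. For Fzd1, Fzd2 and Fzd10 the pileups correspond to 15.1, 12.8 and 13.9 at untreated depth, and the lowest untreated pileups were 11, 10 and 10. For Fzd9 the pileup corresponds to 10.3 at adriamycin depth, and the lowest adriamycin pileup was 9. The local backgrounds under the family's summits were between 1.28 and 2.66 fragments. In all 6 cases that lowest called pileup lay within the counting interval of the peak in question, for Fzd7 only just. In all 6 the scaled pileup itself was above it. Over the whole of that background range the lowest untreated pileup was 8, which lay within the unscaled interval of 4 of the 5 adriamycin peaks and under that of Fzd7. Whether a site of the same strength in the other library fell under its calling limit by counting error was not tested. That limit is known only from the peaks that were called. At its pileup scaled by the genome-wide background, such a site would have stood above the lowest called pileup. Scaled by the median ratio of shared peaks, 1.13, the 5 adriamycin peaks would correspond to fewer untreated fragments, and Fzd9 to more adriamycin ones. By that scaling the pileups of Fzd2 (11) and Fzd6 (10) would fall under the lowest called untreated pileups, 10 and 9. The margins, that of Fzd7 among them, therefore depend on the scaling.

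The summits lay on one side of the gene wherever that can be read. For 4 of the gene-end summits the gene's strand is given by the promoter table, and all 4 are at the transcription start. Over all genes with a known strand, 87.6% of gene and summit pairs with adriamycin and 86.2% untreated were at the start. The Fzd10 summit was 3 bp upstream of it, the Fzd1 summit 507 bp downstream, that of Fzd7 553 bp downstream and the untreated summit of Fzd9 635 bp downstream. Fzd2, Fzd3, Fzd6 and Fzd8 have no entry in that table; their summits lay at the lower-coordinate end of Fzd2, Fzd6 and Fzd8 and at the higher-coordinate end of Fzd3. A place just inside the gene was common to DPPA2 peaks in general. Over the 17492 protein-coding genes with a promoter entry, 83.9% of the 2502 gene and summit pairs at a start were downstream of it with adriamycin and 84.9% of 895 untreated, with medians of 244 and 277 bp. Positions 500 to 1000 bp downstream, where the summits of Fzd1, Fzd7 and Fzd9 fell, held 19.2% of the pairs with adriamycin and 24.4% untreated. With the window narrowed to 500 bp from an end, 3 Frizzled genes were left with adriamycin and 0 untreated, beside 12.2% and 4.08% of all genes.

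**Figure D3:**
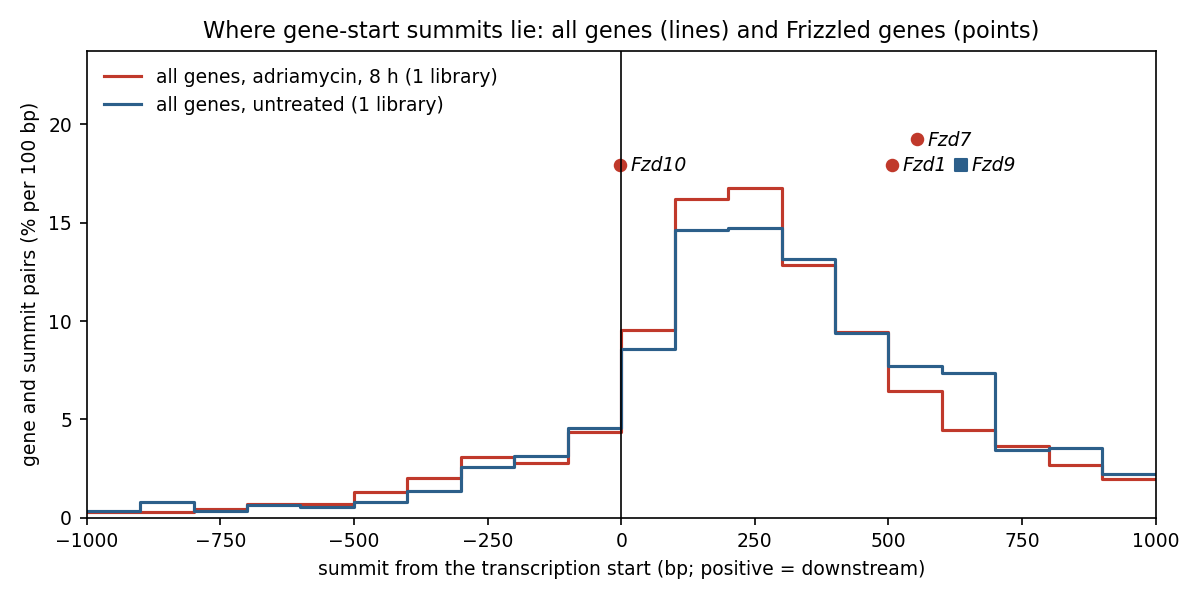
Distance in bp of summits from the transcription start, positive downstream, as the percentage of gene and summit pairs per 100 bp, for all protein-coding genes with a promoter entry (lines, adriamycin and untreated). Points mark the Frizzled summits with a known strand, at heights chosen for legibility: Fzd10 sits at the start, and Fzd1, Fzd7 and Fzd9 lie between 507 and 635 bp downstream, beyond the medians of 244 and 277 bp.

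No Frizzled gene had a summit deeper inside than 1 kb from an end, in either list. Most of these genes leave little room for such a summit, since 8 of the 10 are at most 10 kb long and Fzd9 is 2110 bp. No share of all genes is given for this count. Outside the genes, up to 50 kb away, there were 4 further adriamycin summits and 1 untreated one. This gave 11 summits in reach of the family with adriamycin and 4 untreated, a ratio of 2.75, beside 2.30 for the lengths of the whole lists. Per gene that is 1.10 and 0.400 summits, against 1.35 and 0.514 over all protein-coding genes. In reach of at least 1 summit were 8 of the 10 genes with adriamycin and 4 untreated, and 66.6% and 36.4% of all genes. The gene-end summit farthest from an end was at 670 bp and the nearest of the outer ones at 10213 bp, so that the limit of 1 kb falls in an empty stretch. The farthest summit kept within 50 kb was at 39271 bp (Fzd5), and the nearest one beyond that limit at 53171 bp (Fzd8), both with adriamycin.

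The region upstream of Fzd7 carried the strongest peak of the family and the only distal one called in both libraries. Its adriamycin peak, at chromosome 1, 59450808 to 59451234, had 22 fragments (13.8 to 33.3), a fold of 6.39 and a −log10 q of 10.04, at percentile 77.4 of fold. The untreated peak, at 59450992 to 59451191, had 16 fragments (9.15 to 25.98) and a fold of 4.75, and lies whole inside the adriamycin one. The summits were 31209 and 31103 bp upstream of the transcription start, and no protein-coding gene lay nearer than Fzd7. The scaled pileup ratio, adriamycin over untreated, was 1.60, and its interval of 0.800 to 3.25 includes 1.

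Over the whole lists, 34.4% of adriamycin peaks and 79.7% of untreated peaks overlapped a peak of the other list, so most adriamycin peaks did not. The other outer summits of the family were called with adriamycin and not untreated. The one 10213 bp from Fzd8, at 9202506 to 9202792, had 11 fragments (5.49 to 19.7) and a fold of 5.26. The one 15786 bp from Fzd6, at 38990265 to 38990547, had 13 fragments (6.92 to 22.2) and lies 224 bp inside an end of the pseudogene Gm4740. The one 39271 bp from Fzd5, at 64691167 to 64691384, had 14 fragments (7.65 to 23.5) and lies 246 bp inside an end of Ccnyl1 and 628 bp from an end of the long noncoding RNA gene 2810408I11Rik, so that by position it is at the ends of other genes. Fzd5 itself, a receptor needed for yolk sac and placental vessels in the mouse (chromosome 1, 64730558 to 64737750), had no other summit in reach in either list. Fzd4 (chromosome 7, 89404366 to 89410110), the receptor of the ligand Norrin in retinal vessels, had none within 50 kb in either list. The nearest summits were 107401 bp away with adriamycin and 178303 bp untreated; 31.1% of all genes had no summit within 50 kb in both lists.

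The gene-end peaks of Fzd10 and Fzd6 also lay at the ends of noncoding genes. The Fzd10 summit is 416 bp from the end of Fzd10os, a long noncoding RNA gene (chromosome 5, 128579130 to 128600687) whose near end is 419 bp from the start of Fzd10, and it lies between them. The Fzd6 summit is 391 bp from an end of Gm26704, a long noncoding RNA gene that spans 39003757 to 39007069 and overlaps the start of the Fzd6 interval. At these places a peak cannot be given to 1 of the genes by position.

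A pair of features that the choice of genes did not use were read from the reference. The first is length: 8 of the 10 Frizzled genes are at most 10 kb long, where the median of all protein-coding genes is 17169 bp. Among all genes of at most 10 kb, a gene-end peak was less frequent than among all genes, 8.92% with adriamycin and 3.31% untreated. The second is CpG content. In the window of 250 bp before to 50 bp after the start, the 6 Frizzled promoters held between 16 and 53 CpG dinucleotides, beside a median of 13 over all 17492 genes with an entry, and 4 of the 6 (Fzd4, Fzd5, Fzd9 and Fzd10) fell in the highest quartile.

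Genes with CpG-rich promoters carried DPPA2 gene-end peaks more often in both lists. These are shares of called peaks, and no comparison with an input control was made. In the lowest CpG quartile (0 to 4) 3.88% had one with adriamycin and 1.67% untreated, and in the highest (25 to 65) 31.4% and 11.6%. For genes of at most 10 kb in that highest quartile the shares were 21.5% and 7.12%. Within the family the order of CpG content was not the order of calls. Fzd9 had the most (53), at percentile 99.6 of all promoters, and Fzd10 followed with 45, then Fzd5 with 38 and Fzd4 with 32, both without a gene-end peak, and Fzd7 with 24 and Fzd1 with 16, both with an adriamycin peak. Fzd10 was the only one of the 6 whose peak reached into the printed 250 bases, of which it covered 125.

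**Figure D4:**
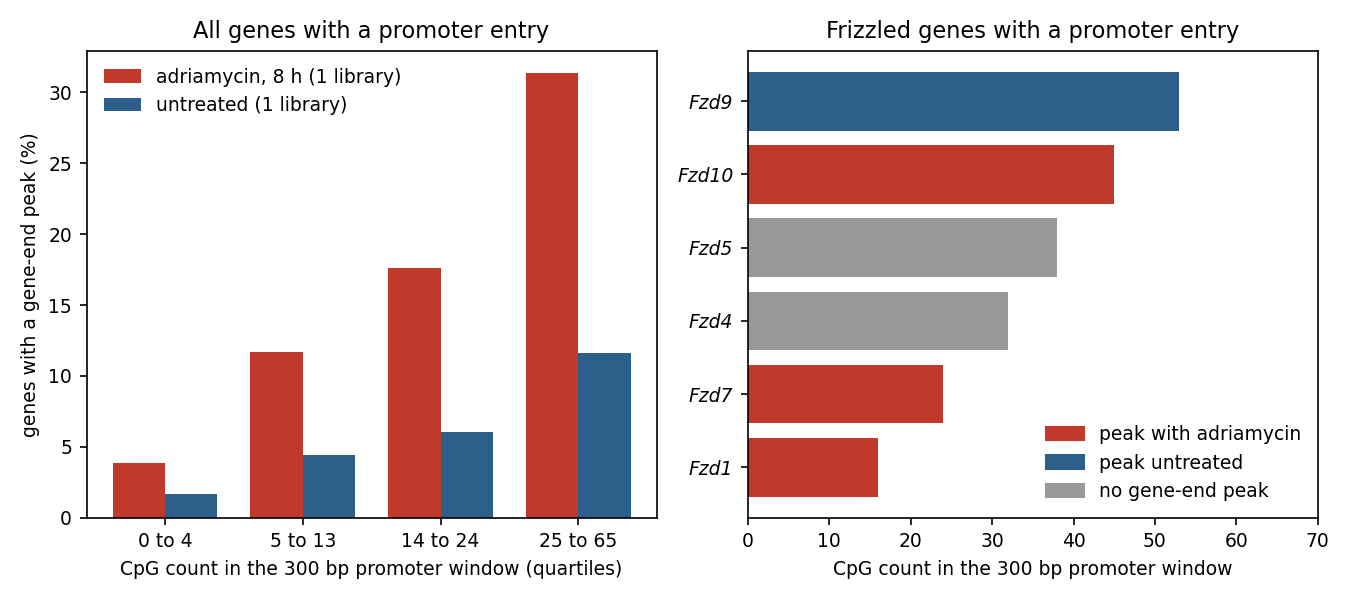
Left, percentage of all protein-coding genes with a promoter entry that had a gene-end peak, by quartile of CpG count in the promoter window, adriamycin bars left of untreated bars. Right, CpG count of the 6 Frizzled promoters, coloured by where a gene-end peak was called: the shares rise over the quartiles to 31.4% and 11.6%, while Fzd5 and Fzd4, with 38 and 32, had no gene-end peak.

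Short motifs were searched in the same window on both strands. GGGCGG, the GC box, which itself holds a CpG, was found in 5 of the 6 Frizzled promoters (all but Fzd1) and in 46.3% of all promoters. CCAAT was found in 3 (Fzd4, Fzd5 and Fzd7) and in 39.2% of all. The p53 half-site in its ten-letter consensus form was found in 0 of the 6 and in 7.32% of all, which says only that these letters are not in these windows.

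Around the receptors, 70 further genes in 7 lists were looked up, all of the Wnt pathway except Smo. The median length of these 70 genes was 37553.5 bp, beside 17169 bp over all protein-coding genes. No share below was matched for length or CpG content. Of the 70, 18 (25.7%) had a gene-end peak with adriamycin and 5 (7.14%) untreated, and these 5 were all called with adriamycin too. Smo, which serves the Hedgehog pathway, is counted among the 18 and among the 5. Ligands and the genes listed as antagonists stood at or under the share of all genes. Of 19 Wnt ligand genes 3 (15.8%) had a peak with adriamycin (Wnt5b, Wnt6 and Wnt10a) and 0 untreated. The summits of these 3 lay 821, 941 and 715 bp from an end, in that order. The highest fold was 5.58 at Wnt6, with 24 fragments (15.4 to 35.7). Of 12 genes listed as antagonists, 0 had one in either list. Among them are the secreted SFRP and DKK families and the membrane proteins Kremen1 and Kremen2. Of the 3 genes for making, secreting or removing Wnt ligands, 2 had a gene-end peak with adriamycin (Wls and Notum) and 0 untreated. Notum, which acts against Wnt ligands, was counted here and not among the antagonists. Wls, the carrier that takes Wnt proteins to the cell surface, had a fold of 8.38 and 16 fragments (9.15 to 25.98). Its summit lay outside the gene, 817 bp beyond the higher-coordinate end. Which end is the transcription start was not read for these lists.

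At the membrane, the lists held co-receptors, other receptors and genes that act on Frizzled itself. Of 8 co-receptors and other receptors, 5 (62.5%) had a gene-end peak with adriamycin (Lrp5, Lrp6, Ryk, Ror2 and Smo) and 2 untreated (Ror2 and Smo). Ryk, a receptor for Wnt ligands with an inactive kinase domain, had the highest fold there, 5.35, with 16 fragments (9.15 to 25.98). Smo, which is of the same receptor class as the Frizzled proteins but serves the Hedgehog pathway and is no partner of theirs, had folds of 5.00 with adriamycin and 3.74 untreated. Of 9 genes that set the amount of Frizzled on the cell surface, 2 (22.2%) had a peak with adriamycin, Lgr4 and Rspo1, and 1 (11.1%) untreated, Lgr4; Lgr4, a receptor for R-spondins, had folds of 6.13 with adriamycin and 5.23 untreated, with 18 and 15 fragments.

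Inside the cell, 3 of 11 genes of Dishevelled and the destruction complex had one with adriamycin (Dvl1, Axin1 and Btrc) and 1 untreated (Dvl1). The highest fold was 5.93 at Axin1, the scaffold of that complex, with 15 fragments (8.40 to 24.7). Of 8 nuclear effectors, 3 had one with adriamycin (Tcf7, Bcl9l and Pygo1) and 1 untreated (Pygo1), and Pygo1, a cofactor of beta-catenin, had the highest fold, 6.36, against 4.71 untreated. Within the adriamycin list the fold of Wls stood at percentile 93.3, that of Pygo1 at 77.0 and that of Lgr4 at 74.0.

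**Figure D5:**
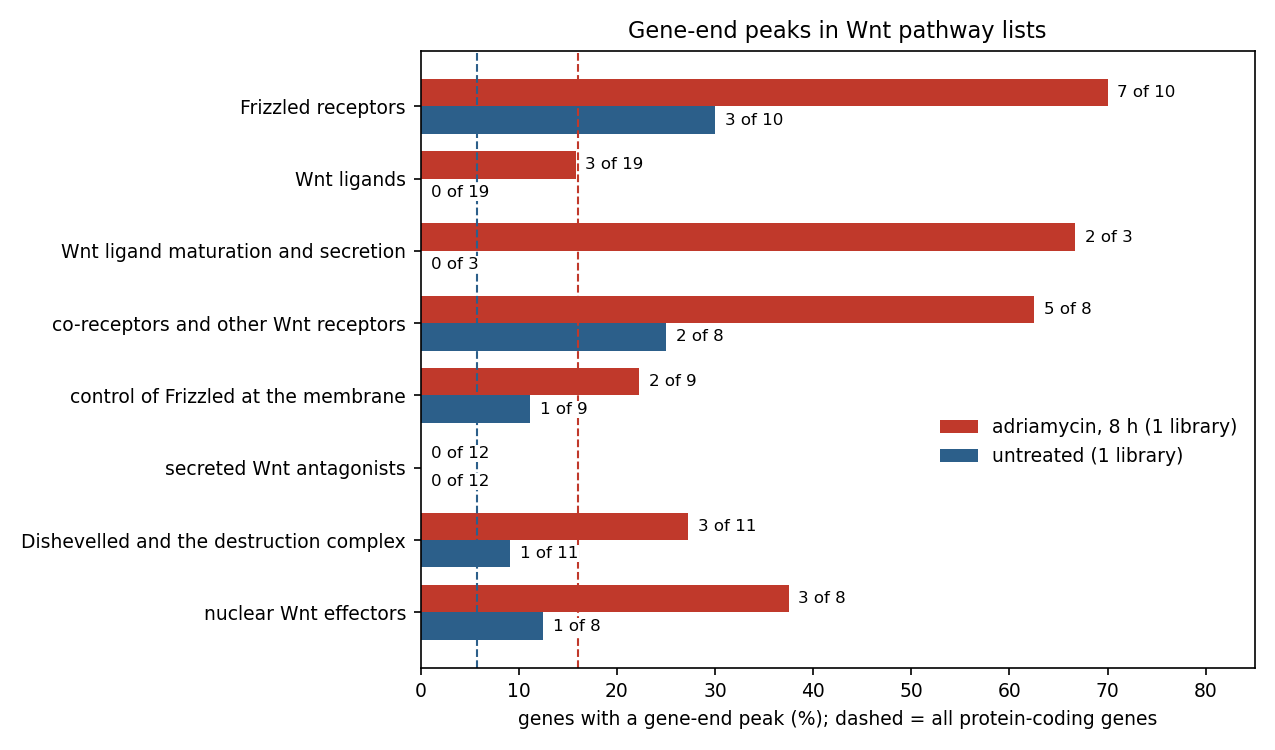
Percentage of genes with a gene-end peak in each Wnt pathway list, adriamycin bars above untreated bars, with the count and list size beside each bar and the share of all protein-coding genes as dashed lines (16.0% and 5.78%). The Frizzled genes (7 of 10 and 3 of 10) were chosen with these calls known. The antagonist list, which includes the membrane proteins Kremen1 and Kremen2, has 0 of 12 in both libraries. The co-receptor list includes Smo, of the Hedgehog pathway.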

How the data were processed

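DPPA2 ChIP-seq was analysed from 2 deposited peak lists, 1 per library, in the mouse build mm10. Per the submitters' processing notes, the tools used were MACS3 3.0.0b1, Bowtie2 2.5.1, SAMtools, deepTools 3.5.1 and FastQC 0.12.1, listed with no roles. Commands, filters and any input control: not given in the sources used here. The fold (a ratio of summit to local background), −log10 p and −log10 q of each peak are the authors' values, as deposited. The deposited score is −log10 q times 10 without its decimals for 100% of adriamycin and 99.97% of untreated entries, and another deposited value gives the distance in bp between peak start and summit. Peaks off chromosomes 1 to 19, X and Y (142 adriamycin, 126 untreated) were left out.

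Fragments at the summit were recovered by finding the whole number that gives both fold (pseudocount 1) and −log10 p (Poisson upper tail) within 0.001, which succeeded for 99.9% of adriamycin and 99.8% of untreated entries; the step was tested on simulated data. Local backgrounds above the genome-wide one were multiples of 0.02 (within 0.0004) for 99.99% and 99.98% of peaks. Such steps arise where a library serves as its own background, which is read from the values and stated in no source used here; folds then carry no input correction.

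Gene positions and promoters are from RefSeq (GRCm38.p6). A promoter entry gives the strand; of several per gene, the one nearest the gene's outer start was used. Peaks were shared at an overlap of at least 1 bp. The members and lists were chosen with earlier results of these data known. Named genes are all Frizzled genes, every list member with a gene-end peak, and the member with the highest adriamycin fold in each list. With 1 library per group nothing was tested between groups. Alternatives changed the window, gene side, thresholds, list length and overlap. Python 3.11.15, numpy 2.4.6, pandas 2.3.3, scipy 1.17.1 and matplotlib 3.10.9 were used.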

Additional observations from a re-analysis of the deposited data

How the results depend on the processing

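The counts of Frizzled genes with a gene-end peak were 7 with adriamycin, 3 untreated, 2 in both lists and 5 with adriamycin and not untreated. They were the same with a window of 2500 bp, where the shares of all genes rose to 20.6% with adriamycin and 7.57% untreated. They were also the same without peaks over a high local background, at least 5 times the genome-wide value (16.0% and 5.73%). The same counts came from whole peak intervals in place of summits, for which no share of all genes is given. In that same order they became 3, 0, 0 and 3 with a window of 500 bp (all genes 12.2% with adriamycin and 4.08% untreated); 3, 1, 1 and 2 at a −log10 q of at least 5 (7.12% and 2.10%); 2, 1, 0 and 2 at a fold of at least 5 (6.94% and 2.14%); and 1, 3, 0 and 1 with lists of equal length (5.72% and 5.78%). They became 3, 1, 0 and 3 at the transcription start alone (14.0% and 5.04%), where the 4 genes without a promoter entry drop out. Summits within reach, 11 with adriamycin and 4 untreated, became 23 and 8 at 100 kb, 5 and 1 at a −log10 q of at least 5, and 5 and 1 at a fold of at least 5. With lists of equal length, where only the adriamycin list was cut, they became 2 and 4, turning the order. A reach of 20 kb (9 and 3) and the nearest gene alone (10 and 4) kept the order. Of the 2 summits called in both lists 1 was left at a reciprocal overlap of 50%. Scaled by the median ratio of shared peaks, 1.13 fragments with adriamycin per untreated fragment, the pileup ratios became 0.945 at Fzd3 and 0.827 at Fzd8, now under 1 but within the intervals given above. No paired analysis was possible because each group had 1 library. With pileups between 10 and 22 fragments, depth limits every comparison at these genes.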
